A study of Homo sapiens with 32 samples.

Results

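The genes that carry the cAMP response through CREB were followed in RH4, a human cell line established from an alveolar rhabdomyosarcoma. The cells were treated with A485, dCBP and JQAD, directed at the acetyltransferases CBP (gene CREBBP) and p300 (gene EP300), and with IHK-44. The 10 genes are CREB1, CREM, ATF1, CRTC1, CRTC2, CRTC3, NR4A1, NR4A2, NR4A3 and SIK1, out of the 18980 coding genes listed for each library. They were chosen by name, but earlier results of these data were known when they were chosen. Total RNA was sequenced in 20 of the 32 samples of the series, and the other 12 samples, which are chromatin and nascent RNA assays, were not analysed here. The compounds were A485, JQAD, dCBP and IHK-44, each given at 100 nM and at 1 uM and each for 2 h and for 6 h, which gives 16 treated libraries. The 4 control libraries are the solvent DMSO and a condition, NT, whose abbreviation the labels do not explain, each at 2 h and at 6 h. All groups share the same line and culture conditions, and the labels name no engineered allele. A485 is known as a catalytic inhibitor of both enzymes, dCBP as a degrader of both and JQAD as a degrader mainly of p300, whereas IHK-44 is known here only by its code name. Each condition is 1 library. In the fit against DMSO the 4 libraries of a compound therefore stood in for replicates, with time as a covariate. In the fit by time the 2 doses of a compound stood in for replicates. DMSO and NT of that time were joined as its control, so 2 libraries were set against 2. The p-values of these fits measure the spread between such libraries, with differences between doses inside it. In the fit against DMSO, differences in response between the times are inside it too. Whether the libraries came from separate cultures is not stated.

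CREB1, ATF1 and CREM are related leucine zipper factors that bind the cAMP response element (CRE). When cAMP activates protein kinase A, phosphorylated CREB recruits CBP and p300, while the CRTC coactivators are dephosphorylated, enter the nucleus and bind the CREB leucine zipper. The salt-inducible kinases, SIK1 among them, phosphorylate the CRTC proteins and keep them in the cytoplasm, and SIK1 is itself induced through CREB. NR4A1, NR4A2 and NR4A3 are orphan nuclear receptors and immediate early genes that cAMP induces in many tissues, muscle included, and CREM has an internal promoter from which the cAMP-inducible repressor ICER is made.

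The letters of the CREB motif were looked for in the DNA around listed start sites of these genes. RefSeq promoter windows (GRCh38.p14, from 250 bases before to 50 bases after a start) were found for 8 of the 10 genes, 17 windows in all, and CRTC2 and NR4A2 had none. The full CRE, TGACGTCA, is its own reverse complement, and lay in 649 of the 35116 windows of the table (1.85%). Its core TGACG, or CGTCA on the other strand, also inside a full CRE, lay in 8622 windows (24.6%) and in 6 of the 17 windows of these genes. The stretches below are shown because they carry the element of ICER, the densest set of cores in an NR4A gene and the core of the CRTC gene with the highest level; each is the plus strand, on which these genes lie, written 5′ to 3′ with CRE letters in capitals.
CREM, at the internal start, chr10:35195841-35195870: gagctgcacatTGACGTCAgctccgagtca
NR4A3, the 250 bases before the start, chr9:99821635-99821884: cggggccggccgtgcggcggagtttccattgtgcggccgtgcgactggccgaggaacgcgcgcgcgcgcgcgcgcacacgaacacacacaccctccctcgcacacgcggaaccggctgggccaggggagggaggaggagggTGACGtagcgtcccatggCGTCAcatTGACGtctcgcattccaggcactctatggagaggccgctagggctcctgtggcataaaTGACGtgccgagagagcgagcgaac
CRTC3, the 250 bases before the start, chr15:90529673-90529922: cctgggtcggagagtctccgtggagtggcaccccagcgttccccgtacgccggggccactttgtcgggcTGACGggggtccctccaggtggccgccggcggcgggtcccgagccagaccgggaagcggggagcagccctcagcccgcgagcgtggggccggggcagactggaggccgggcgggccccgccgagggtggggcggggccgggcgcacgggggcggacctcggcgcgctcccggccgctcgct
Positions count from the start site, negative before it. The full CRE of CREM lies in 2 of its windows, whose starts are close together, and begins at position -50 from one start and at position 2 from the other. NR4A3 holds 4 cores, beginning at positions -109, -91, -83 and -25, and CRTC3 holds 1, at position -181. SIK1 holds 3 cores, and the windows of CREB1, ATF1, NR4A1 and CRTC1 hold none. A match describes letters only, and no match says only that these letters are not in the window.

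In outline, at 6 h the 3 CRTC coactivator genes stood higher under dCBP and IHK-44, and 2 of them, CRTC1 and CRTC3, under A485. NR4A2 stood higher at 6 h under dCBP and IHK-44 (fitted folds 3.15 and 3.34), from few reads, and NR4A1 was higher under dCBP. The CREB family factors CREB1, ATF1 and CREM did not pass in the edgeR fits of all 20 libraries with TMM scaling, against the controls of a time or against DMSO. Under some other settings CREM was called lower, and CREB1 higher under A485 or lower under dCBP. None of the genes passed for JQAD against its controls. These calls are on counts scaled within the coding genes. On the deposited TPM, described further on, none of the higher calls of dCBP and IHK-44 that could be run was made, and the direction for CRTC3 under dCBP turned; NR4A2 was below the filter there.

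The libraries held between 13466631 and 16799327 estimated reads on coding genes. The myogenic genes MYOD1, MYOG, DES, MYH3 and CDH15 together reached 1626 to 1783 CPM (reads scaled to a common total over the coding genes) in the controls. Over all 20 libraries their sum lay between 565.9 and 1975 CPM. MYOD1 ran from 508.3 to 677.2 CPM in the controls and from 27.2 to 747.2 CPM over all libraries. MYOG ran from 263.9 to 300.1 and from 29.8 to 319.2 CPM. Over all libraries DES lay between 266 and 465.4 CPM, CDH15 between 220.3 and 454.2 CPM, and MYH3 was at most 12.7 CPM. The summed level of 9 markers of blood, epithelial, endothelial and liver cells was at most 2.503 CPM, and EPCAM was at 0 throughout. On CPM the DMSO and NT libraries of a time lay near each other for most of these genes.

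Levels between genes were compared on TPM, which corrects for length. In RNA from whole cultures, fewer cells of a kind and less RNA per cell cannot be told apart. In the 4 control libraries the median TPM was highest for CRTC3 at 13.04 (range 11.58 to 14.33), followed by CREB1 at 11.95 (10.52 to 12.39), CREM at 10.41 (9.48 to 11.35) and ATF1 at 8.89 (8.78 to 10.16). Each of these overlapped its neighbour in the order. CRTC2 lay lower at 7.89 TPM (7.64 to 8.65), clear of ATF1, and CRTC1 lower again at 4.05 TPM (2.74 to 4.6), a range that contains the one of NR4A1, which had a median of 3.26 TPM (2.93 to 3.46). NR4A3 and NR4A2 were near the floor of the assay, at 0.38 TPM (0.26 to 0.47) and 0.175 TPM (0.15 to 0.25). SIK1 was listed at 0 in all 20 libraries. RefSeq (GRCh38.p14) carries a near-identical copy of SIK1 on chromosome 21 (6111131 to 6123778, against 43414483 to 43427131 for SIK1), reads of which the counting could assign to either copy; that locus was not analysed here, and so the 0 is given as listed, with no fold.

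**Figure D1:**
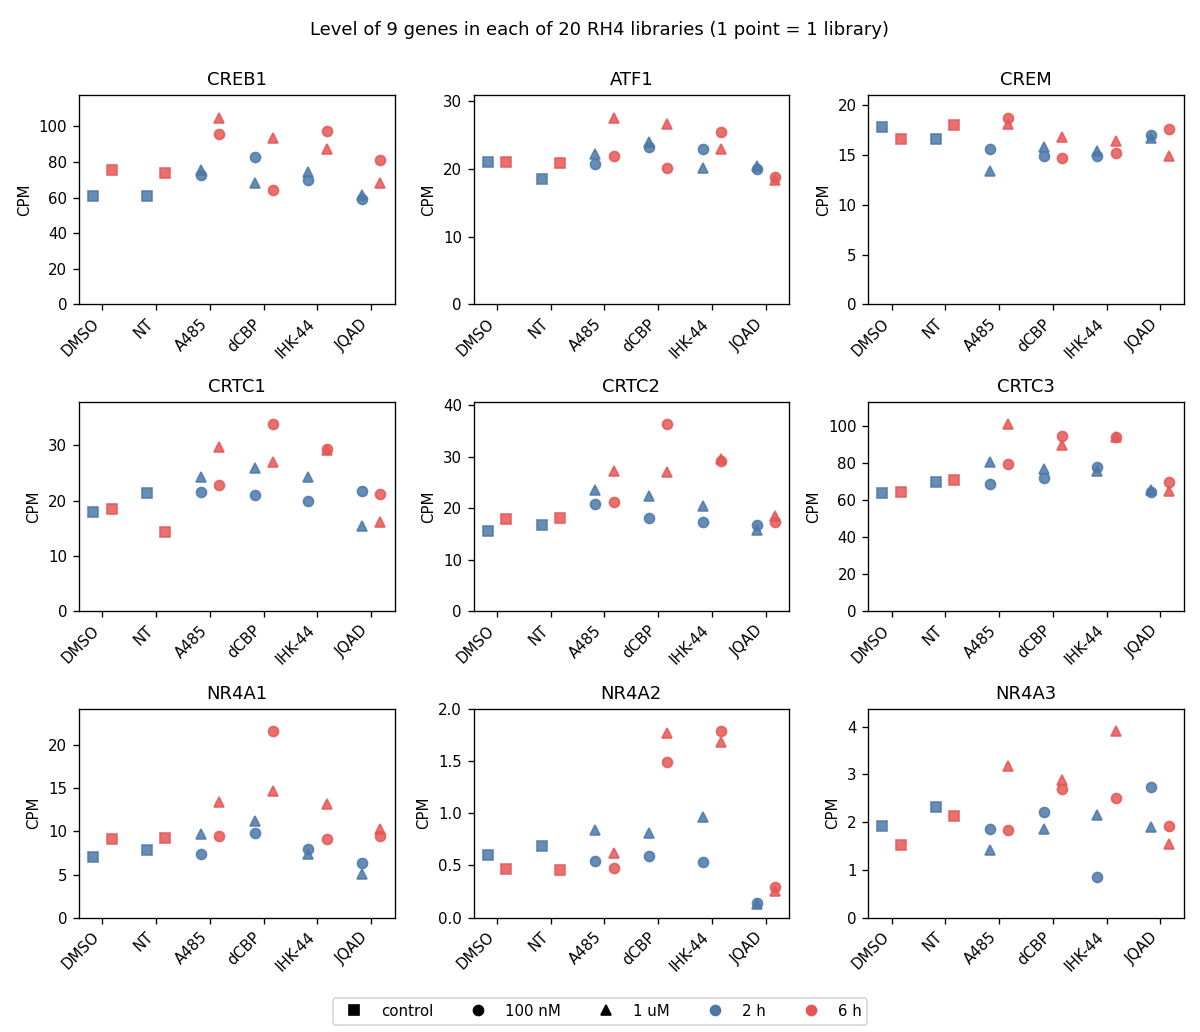
CPM of 9 of the genes in each of the 20 libraries (1 point is 1 library, so there are no error bars), by treatment, with the time as colour and the dose as shape; SIK1, at 0 everywhere, is left out. CRTC1, CRTC2 and CRTC3 reached 29.2, 29.5 and 94.1 CPM at 6 h under 1 uM IHK-44, above every control, and NR4A2 was lowest in the 4 JQAD libraries.

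CREB1 encodes the founding factor of the family. The gene lies on chromosome 2 (207529962 to 207605988, GRCh38.p14). Its level was 60.8 CPM in DMSO and 61.1 CPM in NT at 2 h, and 75.2 and 73.7 CPM at 6 h. Under A485 it was 75.6 CPM at 1 uM and 72.5 CPM at 100 nM after 2 h, and 105 and 95.4 CPM after 6 h. All 4 libraries thus lay above both controls of their time. The share of all genes with this pattern was not computed, so it cannot be read as particular to CREB1. Under dCBP the values were 68.3 and 82.6 CPM at 2 h, then 93.4 CPM at 1 uM but 64.3 CPM at 100 nM after 6 h, which put the doses on opposite sides of the controls. IHK-44 gave 74.2 and 69.6 CPM at 2 h and 87.2 and 97.5 CPM at 6 h, again above the controls of the time and with the same limit. JQAD gave 61.6 and 59.0 CPM at 2 h and 68.3 and 81.1 CPM at 6 h, on both sides of them. None of these differences passed edgeR's quasi-likelihood test: the nearest was A485 at 6 h, with a log2 change of 0.34 (SE 0.13) and an edgeR adjusted p of 0.0825. A485 at 6 h passed when the 1 uM or the 100 nM dCBP library of 6 h was left out of the edgeR fit (log2 change 0.34 or 0.35). Without the 1 uM dCBP library dCBP at 6 h was called lower, at -0.34. Each of these fits leaves 1 dCBP library at 6 h, so the spread comes from the other groups.

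ATF1 is a close relative that pairs with CREB1. The gene lies on chromosome 12 (50763459 to 50821162). Its 4 controls ran from 18.6 to 21.0 CPM. The A485 libraries ran from 20.8 to 27.5 CPM, with the highest at 1 uM and 6 h, the dCBP libraries from 20.2 to 26.5 CPM, the IHK-44 libraries from 20.05 to 25.4 CPM and the JQAD libraries from 18.3 to 20.5 CPM. Every compound's range overlapped that of the controls, and no edgeR comparison against DMSO or against the controls of a time called ATF1.

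CREM (chromosome 10, 35126846 to 35212958) codes for activators and, from its internal start, for ICER; the deposited gene totals do not separate these products. Controls held 17.8 CPM (DMSO) and 16.6 CPM (NT) at 2 h and 16.7 and 18.02 CPM at 6 h. IHK-44 gave 15.45 and 14.9 CPM at 2 h and 16.5 and 15.2 CPM at 6 h for 1 uM and 100 nM, each below all 4 controls, as was the case in all 4 libraries for 11.5% of the 12174 genes with a mean of at least 1 CPM. Under dCBP 3 of 4 libraries lay below all controls (15.8 and 14.95 CPM at 2 h, 16.9 and 14.7 CPM at 6 h). A485 was low at 2 h, 13.4 and 15.6 CPM, and high at 6 h, 18.1 and 18.8 CPM, while JQAD ran from 14.9 to 17.6 CPM. The 6 h log2 changes were -0.29 (SE 0.13) for dCBP and -0.30 (SE 0.12) for IHK-44, with edgeR adjusted p of 0.0668 and 0.0628. CREM was called lower in both, at edgeR adjusted p of 0.0495 and 0.0448, with RLE in place of TMM scaling, over both times with DMSO and NT joined (log2 change -0.26 for dCBP and -0.27 for IHK-44, edgeR adjusted p 0.0416 and 0.0341), and at 6 h for IHK-44, at 0.0484, without the 1 uM dCBP library of 6 h.

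The CRTC genes encode the coactivators that bind CREB. CRTC1 (chromosome 19, 18683680 to 18782333) stood at 18.01 and 21.4 CPM in DMSO and NT at 2 h and at 18.5 and 14.2 CPM at 6 h; the controls of 6 h differed more than those of 2 h. A485 gave 24.2 and 21.6 CPM at 2 h and 29.8 and 22.8 CPM at 6 h at 1 uM and 100 nM. All 4 lay above all 4 controls, as was so for 10.8% of the genes with a mean of at least 1 CPM, although the 100 nM library of 2 h cleared NT by little. Under dCBP the values were 25.95 and 21.0 CPM at 2 h and 26.9 and 33.8 CPM at 6 h, and under IHK-44 24.3 and 20.0 CPM at 2 h and 29.2 and 29.3 CPM at 6 h. The 4 libraries of dCBP and IHK-44 at 6 h thus lay above every control. The share of all genes with this pattern was not computed, so it cannot be read as particular to CRTC1. JQAD gave 15.3 and 21.7 CPM at 2 h and 16.2 and 21.2 CPM at 6 h, within or close to the control range. Against DMSO and NT joined at 6 h, CRTC1 rose with a log2 change of 0.59 (SE 0.20) under A485, 0.74 (SE 0.20) under dCBP and 0.67 (SE 0.19) under IHK-44, at edgeR adjusted p of 0.0472, 0.00562 and 0.0108. The A485 call was lost in 12 of the 20 fits that left out 1 library, with an edgeR adjusted p of up to 0.37 without the 1 uM A485 library of 6 h; the other 11 were the 4 controls, A485 at 2 h (1 uM and 100 nM), 1 uM dCBP at 2 h and all 4 IHK-44 libraries. The dCBP call was lost without NT at 6 h or without 100 nM dCBP at 6 h (edgeR adjusted p 0.0797 and 0.0686), and the IHK-44 call without NT at 6 h (0.127). With DMSO alone as control none of the 3 CRTC1 calls was made: the log2 changes were 0.415 under A485, 0.56 under dCBP and 0.49 under IHK-44, at edgeR adjusted p of 0.342, 0.091 and 0.144. On the TPM as deposited CRTC1 was 0.25 under dCBP and 0.28 under IHK-44 (limma adjusted p 0.363 and 0.332).

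CRTC2 (chromosome 1, 153947675 to 153958612) is the family member best known from gluconeogenesis in liver. Its control levels were close together, 15.5 and 16.7 CPM at 2 h and 17.9 and 18.1 CPM at 6 h. Under A485 it was 23.5 and 20.8 CPM at 2 h and 27.1 and 21.2 CPM at 6 h. All 4 lay above all 4 controls, as was so for 10.8% of the genes with a mean of at least 1 CPM. Under dCBP it was 22.25 and 17.97 CPM at 2 h and 26.99 and 36.3 CPM at 6 h, the last value, at 100 nM, being the highest of all libraries. IHK-44 gave 20.4 and 17.3 CPM at 2 h and 29.5 and 29.2 CPM at 6 h, and JQAD between 15.8 and 18.5 CPM, which is the control range apart from 1 library. At 6 h CRTC2 rose with a log2 change of 0.66 (SE 0.15) under dCBP and 0.53 (SE 0.15) under IHK-44, at edgeR adjusted p of 0.00235 and 0.00976. The A485 change of 0.33 (SE 0.15) at 6 h had an edgeR adjusted p of 0.138; on TPM over the coding genes it was 0.46, with a limma adjusted p of 0.0439. Without the DMSO library of 6 h the IHK-44 value was 0.0511, with DMSO alone as control 0.0672 and with NT alone 0.0742; the dCBP call held in all 20 fits that left out a library. On the TPM as deposited neither was called, at 0.33 under dCBP and 0.29 under IHK-44 (limma adjusted p 0.166 and 0.25).

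CRTC3 (chromosome 15, 90529923 to 90645345) had the highest level of the 3 and the smallest change. Controls were 63.4 and 69.8 CPM at 2 h and 64.4 and 70.9 CPM at 6 h, with NT above DMSO at both times. A485 gave 80.4 and 68.6 CPM at 2 h and 101 and 79.2 CPM at 6 h. dCBP gave 76.9 and 71.9 CPM at 2 h and 89.4 and 94.2 CPM at 6 h, and IHK-44 75.6 and 77.7 CPM at 2 h and 94.1 and 93.8 CPM at 6 h. All 8 of these dCBP and IHK-44 libraries lay above all 4 controls, as did all 4 libraries for 20.1% of genes under dCBP and 23.9% under IHK-44. JQAD stayed between 64.1 and 69.8 CPM, inside the control range. The 6 h log2 changes were 0.32 (SE 0.10) under A485, 0.28 (SE 0.10) under dCBP and 0.305 (SE 0.10) under IHK-44, at edgeR adjusted p of 0.0403, 0.0299 and 0.0224, but on the TPM as deposited CRTC3 under dCBP at 6 h turned to -0.03 and under IHK-44 came to 0.00369. Leaving out the DMSO library of 6 h ended all 3 calls (edgeR adjusted p 0.225 under A485, 0.196 under dCBP and 0.162 under IHK-44). The A485 call was also lost without NT of 6 h, 1 uM A485 of 6 h (log2 change 0.19, adjusted p 0.448), 1 uM dCBP of 2 h, 1 uM IHK-44 of 2 h, both IHK-44 libraries of 6 h or 1 uM JQAD of 2 h, the dCBP call without 100 nM dCBP of 6 h, and the IHK-44 call without either IHK-44 library of 6 h. With DMSO alone or NT alone as control none of the 3 was called, and DESeq2 gave the dCBP change an adjusted p of 0.0529.

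NR4A1 (chromosome 12, 52022832 to 52059503) encodes Nur77, a receptor induced within minutes to hours of many stimuli. DMSO and NT held 7.08 and 7.81 CPM at 2 h and 9.13 and 9.20 CPM at 6 h. Under dCBP it was 11.2 and 9.77 CPM at 2 h and 14.75 and 21.7 CPM at 6 h. All 4 libraries lay above all 4 controls, as was so for 20.1% of the genes with a mean of at least 1 CPM. The 100 nM library of 6 h held the only 2-fold difference from the DMSO of its time among the 8 genes over 1 CPM. This was on log2(CPM + 1), with a log2 ratio of 1.16, and 6.42% of genes were that much higher in it. With a pseudocount of 0.1 in place of 1, 5 values reached 2-fold, 4 higher and 1 lower. A485 gave 9.70 and 7.325 CPM at 2 h and 13.4 and 9.42 CPM at 6 h. IHK-44 gave 7.43 and 7.91 CPM at 2 h and 13.2 and 9.17 CPM at 6 h, so under both compounds the 1 uM library of 6 h stood apart from the rest. JQAD gave 5.02 and 6.29 CPM at 2 h, below both controls, and 10.3 and 9.47 CPM at 6 h, just above them. NR4A1 rose under dCBP, with a log2 change of 0.84 (SE 0.215) at 6 h and an edgeR adjusted p of 0.00477, and no other compound's change passed. Without the 100 nM dCBP library of 6 h the change was 0.51, with an edgeR adjusted p of 0.0914, and on the TPM as deposited it was 0.39, with a limma adjusted p of 0.112.

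NR4A2 (chromosome 2, 156324437 to 156332721) encodes Nurr1. Its counts are low, and reads are given with their number: 10 in DMSO and 11 in NT at 2 h, and 7 in each at 6 h. After 2 h A485 gave 13 and 9 reads, dCBP 11 and 8, and IHK-44 13 and 8, at 1 uM and 100 nM, which spans the controls. After 6 h A485 gave 10 and 7 reads, whereas dCBP gave 24 and 21 and IHK-44 28 and 30, all above the 7 of each control. The share of all genes with this 6 h pattern was not computed. JQAD gave 2 reads in each library of 2 h and 4 in each library of 6 h, the 4 lowest values of the 20. All 4 JQAD libraries lay below all 4 controls for 1.47% of the 12174 genes with a mean of at least 1 CPM, a set without NR4A2. NR4A2 rose at 6 h with a log2 change of 1.66 (SE 0.40) under dCBP and 1.74 (SE 0.39) under IHK-44, at edgeR adjusted p of 0.003 and 0.00197, and both calls held in all 20 fits that left out a library. Pooled reads, relative to library totals, were 3.56 times the controls for dCBP at 6 h (95% interval 1.92 to 7.02) and 3.80 times for IHK-44 (2.09 to 7.38), intervals that cover counting error only.

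For JQAD the pooled NR4A2 reads were 12 against 35 in the controls, a ratio of 0.370 (95% interval 0.175 to 0.730). At 2 h they were 4 against 21 (0.210, 0.0524 to 0.622) and at 6 h 8 against 14 (0.604, 0.220 to 1.54). The fitted log2 change at 2 h was -2.17 (SE 0.56), with an unadjusted edgeR p of 0.00136 and an edgeR adjusted p of 1. It did not pass over all 13260 genes tested, of which 138 had an unadjusted p under 0.05 in this comparison. The intervals of the ratios cover counting error only and are shown for the compound with the lowest reads, so they do not establish a difference.

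**Figure D2:**
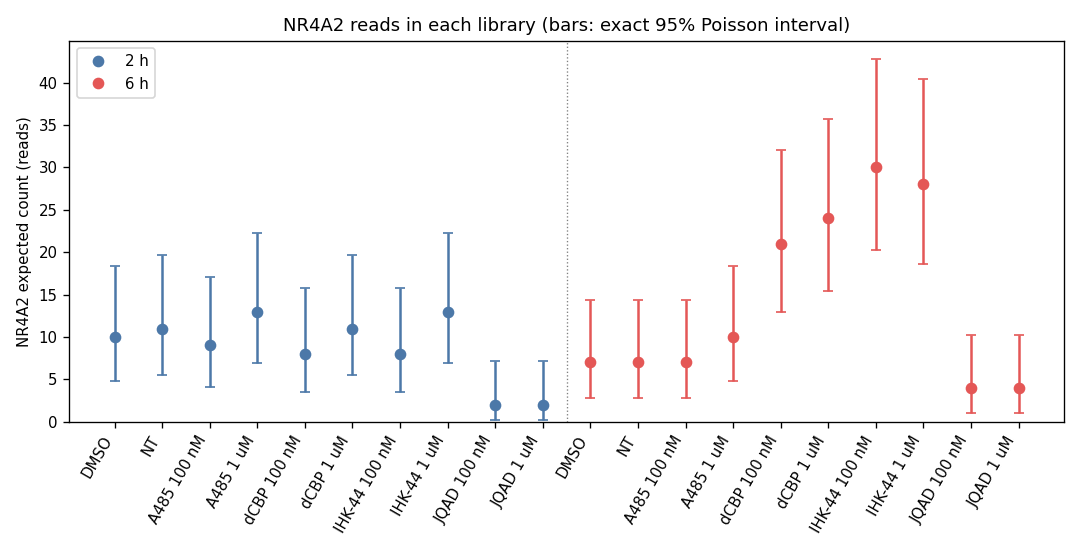
NR4A2 reads (expected count) in each library, by treatment and dose, at 2 h on the left and 6 h on the right; bars are exact 95% Poisson intervals, which cover counting error only. The 4 libraries of dCBP and IHK-44 at 6 h hold 21 to 30 reads, and the 4 JQAD libraries 2 to 4.

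NR4A3 (chromosome 9, 99821885 to 99866891), the third receptor, had 32 reads in DMSO and 37 in NT at 2 h and 23 and 33 at 6 h, or 1.92, 2.31, 1.52 and 2.12 CPM. The highest level was 3.91 CPM under 1 uM IHK-44 at 6 h and the lowest 0.856 CPM under 100 nM IHK-44 at 2 h, so both ends of its range came from 1 compound. A485 ran from 1.42 to 3.175 CPM, dCBP from 1.85 to 2.88 CPM and JQAD from 1.55 to 2.73 CPM. At 6 h dCBP gave 2.88 and 2.69 CPM and IHK-44 3.91 and 2.50 CPM, above every control. The share of all genes with this pattern was not computed. Pooled reads at 6 h were 1.52 times the controls for dCBP (95% interval 1.07 to 2.19) and 1.75 times for IHK-44 (1.26 to 2.47). At 2 h the ratios were 0.961 and 0.694. These intervals cover counting error only. No edgeR comparison called NR4A3; the largest change at 6 h was 0.64 (SE 0.37) under IHK-44, with an edgeR adjusted p of 0.172.

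Counted together, the treatments were called at 6 h and not at 2 h. In the fit that took DMSO and NT of a time as its controls, 0 of 36 tests (9 genes by 4 compounds; SIK1 was not testable) passed at 2 h, where the calls over all genes were 5.63% under dCBP, 4.88% under IHK-44, 0.0452% under A485 and 0 under JQAD. At 6 h 11 of the 36 passed, all higher: 5 of 9 under dCBP, against 23.2% of all genes called higher (45.5% in either direction), 4 of 9 under IHK-44 (20.7%; 42.1%), 2 of 9 under A485 (7.84%; 16.5%) and 0 under JQAD (0). None was called lower, against 22.4% of all genes under dCBP, 21.4% under IHK-44 and 8.7% under A485. The median log2 change of the 9 genes at 6 h was 0.45 under dCBP, 0.305 under IHK-44 and 0.32 under A485, where the medians of all genes were 0.06, 0.06 and 0.02. These comparisons share their control libraries. With DMSO alone as the control 4 of the 11 calls were made, and with NT alone 6.

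**Figure D3:**
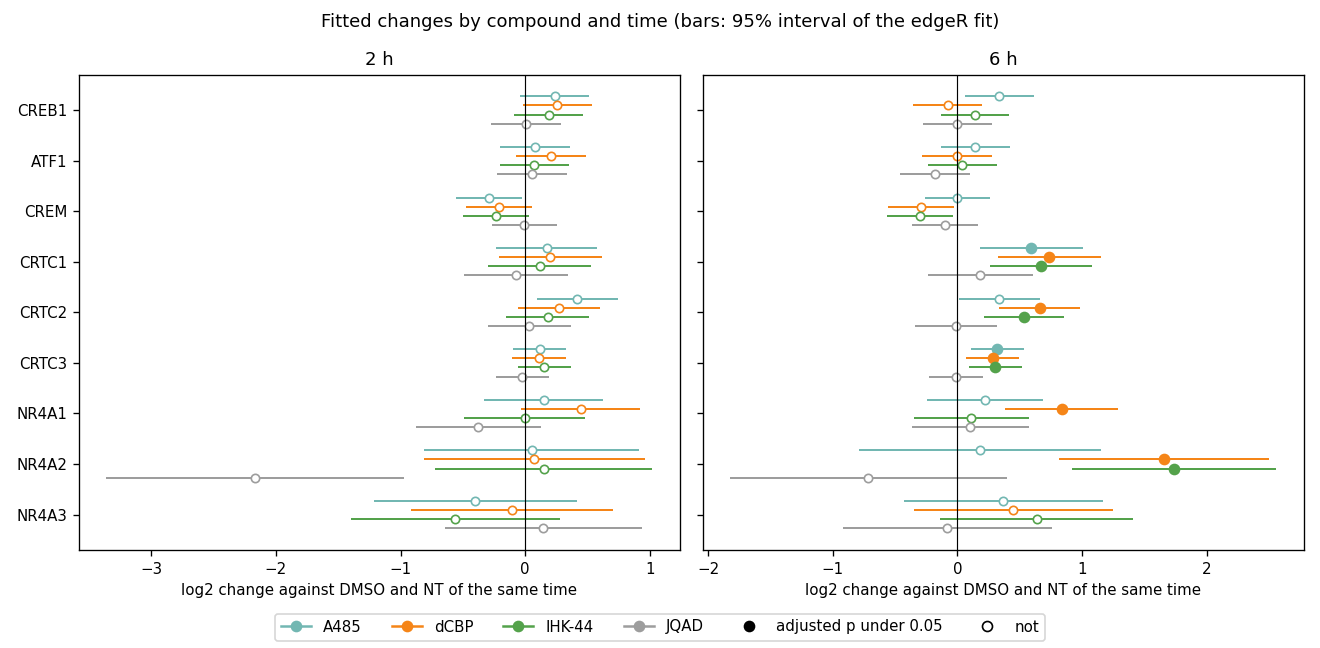
Fitted log2 change of 9 genes against DMSO and NT of the same time (horizontal axis), at 2 h and 6 h, by compound; bars are 95% intervals of the edgeR fit and filled points have an adjusted p under 0.05. All 11 filled points lie at 6 h and above 0, on counts scaled within the coding genes; on the TPM as deposited the CRTC3 point for dCBP fell to -0.03.

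The difference between the times was not itself called. In the edgeR interaction of treatment with time 0 of 36 tests passed, where the share of all genes passing was 9.06% under dCBP, 9.89% under IHK-44, 0.00754% under A485 and 0 under JQAD. The largest were NR4A2, whose response was 1.58 (SE 0.58) higher on the log2 scale at 6 h than at 2 h under dCBP and 1.59 (SE 0.57) higher under IHK-44, at edgeR adjusted p of 0.10 and 0.0926. Without the 1 uM dCBP library of 6 h, the dCBP value came to -0.60 for CREB1 and 0.61 for CRTC2. That fit leaves 1 dCBP library at 6 h, so its spread comes from the other groups. In the controls themselves, 6 h against 2 h called none of the 9 genes and 0.0754% of all genes; CREB1 had the smallest unadjusted p, 0.0414, at a log2 change of 0.29 (SE 0.13).

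The doses could not be told apart for these genes. For 1 uM against 100 nM within compound and time 0 of 36 edgeR tests passed, where 0.929% of all genes passed for A485, 0.107% for IHK-44 and 0 for dCBP and JQAD. The smallest unadjusted p-values were for CRTC1 under JQAD, -0.43 on the log2 scale (95% interval -0.81 to -0.05, p 0.0301), and NR4A3 under IHK-44, 0.87 (0.09 to 1.64, p 0.0312). The intervals for NR4A2 were wide, for example -0.70 to 1.15 under IHK-44, and a difference of that size was not detectable at this depth.

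Over both times and doses against DMSO alone, edgeR called 3 of the 9 genes for dCBP, all higher, where 11.8% of all genes were called higher (23.7% in either direction): CRTC2 with a log2 change of 0.50 (SE 0.16, adjusted p 0.0343), CRTC3 with 0.26 (SE 0.09, adjusted p 0.0414) and NR4A1 with 0.68 (SE 0.20, adjusted p 0.0265). For IHK-44 the only call was CRTC3, at 0.29 (SE 0.09, edgeR adjusted p 0.0338), where 7.74% of all genes were called higher (16.9% in either direction). On the TPM as deposited CRTC3 was -0.09 under dCBP and -0.07 under IHK-44 in this comparison. A485 called 0 of 9 (0.271% of all genes), as did JQAD and NT (0 of all genes; 143 and 104 genes had an unadjusted edgeR p under 0.05, and DESeq2 called 0 as well). The dCBP calls depended on few libraries. Without the DMSO library of 2 h, which leaves 1 DMSO library, the log2 changes were larger: 0.55 for CRTC2, 0.33 for CRTC3 and 0.77 for NR4A1. Without that of 6 h they were 0.44, 0.19 and 0.585. All 3 calls were lost without the 100 nM dCBP library of 6 h, and 2 without the 1 uM dCBP library of 2 h. The CRTC3 call was lost in 10 of the 20 fits that left out a library, and also with RLE scaling (adjusted p 0.0612), by DESeq2 (0.0543), without the filter (0.0804) and with NT as control (0.265). The IHK-44 call was lost without either IHK-44 library of 6 h. Without the DMSO library of 2 h or of 6 h, CRTC3 under IHK-44 was 0.36 or 0.22.

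Set directly against each other at matched doses and times, all differences that passed were from JQAD. Of 54 tests (6 pairs by 9 genes, adjusted over all genes within a pair) 8 passed. dCBP stood above JQAD in 5 of 9 genes, where 18.9% of all genes were called higher under dCBP and 35.3% in either direction. NR4A2 was higher by 2.32 (SE 0.43) on the log2 scale and NR4A1 by 0.77 (SE 0.16), at edgeR adjusted p of 0.00138 and 0.00315. CRTC2, CRTC1 and CRTC3 were higher by 0.46 (SE 0.13), 0.42 (SE 0.15) and 0.21 (SE 0.07) (edgeR adjusted p 0.0123, 0.0421 and 0.0294). IHK-44 stood above JQAD in 3 of 9, where 16.4% of all genes were called higher under IHK-44 and 32.5% in either direction. This count is near the share in either direction. The log2 differences were 2.40 (SE 0.42) for NR4A2, 0.35 (SE 0.13) for CRTC2 and 0.245 (SE 0.07) for CRTC3 (edgeR adjusted p 0.000969, 0.0439 and 0.0167). On the TPM as deposited the dCBP differences turned to -0.09 for CRTC1 and -0.16 for CRTC3, and the IHK-44 difference to -0.14 for CRTC3. The NR4A2, NR4A1 and dCBP CRTC2 differences held in all 20 fits that left out a library; the CRTC1 difference held in 7, CRTC2 under IHK-44 in 6, and CRTC3 in 13 and 17.

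In the edgeR test on counts dCBP, IHK-44 and A485 did not differ in any of these genes, which does not show that they act alike. On the TPM as deposited, limma called A485 above dCBP for 10462 and above IHK-44 for 10823 of 12174 genes. CRTC1 was 0.595 and 0.65 higher under A485 on that scale. dCBP exceeded IHK-44 in NR4A1 by 0.595 (95% interval 0.255 to 0.935, edgeR adjusted p 0.591, with 0 of all genes called), and the interval for NR4A2 ran from -0.78 to 0.60. A485 lay below dCBP in NR4A1 by a log2 difference of -0.46 (-0.801 to -0.125, edgeR adjusted p 0.138, 0.724% of all genes called; 0.18 on the TPM as deposited) and below IHK-44 in NR4A2 by -0.88 (-1.61 to -0.14, edgeR adjusted p 0.223, 0.882% called). Against JQAD, A485 came closest with NR4A2 at 1.53 (0.56 to 2.49, edgeR adjusted p 0.0615) and CRTC3 at 0.23 (0.08 to 0.38, 0.0645), where 4.91% of all genes were called. For the CRTC genes the edgeR intervals on counts between A485, dCBP and IHK-44 lay within -0.41 and 0.39 on the log2 scale.

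The scale matters for the small changes. The coding genes held between 27.9% and 53.9% of the TPM that the authors deposited: 39.3% to 44.5% in the controls, 27.9% to 35.4% under dCBP, 31.2% to 34.6% under IHK-44 and 43.0% to 53.9% under A485. On log2(TPM + 1) as deposited the median of all genes therefore lay at -0.28 under dCBP, -0.29 under IHK-44 and 0.27 under A485 against DMSO, and limma called 3918 genes lower and 111 higher for dCBP, where edgeR on counts called 1567 lower and 1570 higher. CRTC3 at -0.09 under dCBP was thus above the median of all genes on that scale and below DMSO. CREM was called lower on it against DMSO, at -0.59 under dCBP and under IHK-44 (limma adjusted p 0.0156 and 0.0145), below the median of all genes. With the TPM rescaled over the coding genes, CRTC3 was 0.25 under dCBP (limma adjusted p 0.0875) and 0.28 under IHK-44 (0.074), in the direction of the counts.

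Genes with the most similar profile were sought for the 8 genes with a mean of at least 1 CPM, by Pearson's r of log2(CPM + 1) over the 20 libraries, as a description; the libraries share treatments and depth. For CRTC2 these were WTIP, TAOK2 and FXR2 (r 0.976, 0.972 and 0.971), for CRTC3 CHD8, ZFP64 and ANKH (0.963, 0.957 and 0.954), and for CRTC1 PLXNA3, HOXB3 and ACSF3 (0.935, 0.935 and 0.926). For ATF1 they were EIF5, SMC3 and FBXO28 (0.874, 0.850 and 0.846), and for CREM, with the lowest values, SGMS1, DNAJB4 and CDC14A (0.800, 0.771 and 0.755). NR4A1 was nearest to S1PR5, ZGPAT and TMEM104 (0.932, 0.920 and 0.914) and NR4A3 to NR1H3, TGFBR3 and TLCD2 (0.864, 0.839 and 0.829). None of the 10 genes was among the 3 nearest of another.

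The rest of the pathway was read from 6 lists, as counts in the fit against DMSO over both times, and then at 6 h against both controls. Against DMSO 11.8% of all genes were called lower and 11.8% higher for dCBP, and 9.21% lower and 7.74% higher for IHK-44; at 6 h the shares were 22.4% and 23.2% for dCBP, 21.4% and 20.7% for IHK-44, and 8.7% and 7.84% for A485. Of the known cAMP-induced CREB targets outside the 10 genes, 22 of 30 were tested, and 9 fell and 5 rose under dCBP, 9 fell and 3 rose under IHK-44; their median log2 change was -0.28 and -0.37, against 0.05 and 0.04 for all genes. At 6 h 11 were lower and 8 higher under dCBP, 11 and 6 under IHK-44, and 5 and 1 under A485. KLF4, a zinc finger factor, fell most: it ran from 22.6 to 35.3 CPM in the controls and from 1.67 to 6.19 CPM under IHK-44, a log2 change of -2.98 (SE 0.45, edgeR adjusted p 0.000838). ID1, an inhibitor of helix-loop-helix factors, went from 73.5 to 90.4 CPM in the controls to 16.7 to 20.5 CPM (-2.26), and the hormone gene STC1 changed by as much (-2.26). EGR1 and FOS, immediate early factors, moved the other way under dCBP. EGR1 ran from 4.83 to 7.74 CPM in the controls and 22.4 to 42.1 CPM under dCBP (2.19, SE 0.46). FOS rose by 1.86 (SE 0.41) from a low level, 0.529 to 1.56 CPM in the controls and 2.21 to 5.1 CPM under dCBP. RGS2, which dampens G protein signalling, rose by 1.29 (SE 0.24) under IHK-44. ATF3 is in this list and the next, and PDE4B and PDE4D are in this list and that of the phosphodiesterases. Without the DMSO library of 6 h fewer of these genes were called for either compound, in a fit that leaves 1 DMSO library. The share of all genes called in that fit is not given here, so the loss cannot be read as particular to this list.

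Among 17 CREB/ATF relatives, 16 were tested, and 2 fell and 1 rose under each of dCBP and IHK-44. ATF3, a stress-induced repressor also counted among the targets above, fell by 2.05 under IHK-44 (26.3 to 42.0 CPM in the controls, 4.46 to 18.3 CPM), and CREB5 fell by 1.66, while the small relative CREBL2 rose by 0.65. Medians of this list were 0.01 and -0.05, and its counts were near the shares of all genes. At 6 h 5 were lower and 2 higher under dCBP, 3 and 2 under IHK-44, and 2 and 2 under A485. The calls of these relatives were lost without the DMSO library of 6 h, in the same fit with 1 DMSO library and no share over all genes given.

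The regulators of CREB and the CRTC proteins, all 18 tested, gave 4 lower and 3 higher calls under dCBP and 0 under IHK-44, but at 6 h the compounds were close, with 4 lower and 4 higher under dCBP, 3 and 4 under IHK-44, and 1 and 3 under A485. PPP3CA, the catalytic subunit of calcineurin that dephosphorylates the CRTC proteins, fell by 0.71 (SE 0.23), CAMK2D by 0.64 and the kinase RPS6KA3 by 0.46. RPS6KA1 rose by 0.78, and the CRTC kinases MARK2 and SIK2 rose by 0.50 and 0.345 (SE 0.16 and 0.10), SIK2 with the sign turned, -0.01, on the TPM as deposited. RPS6KA3 and SIK2 were not called with NT as control (edgeR adjusted p 0.0657 and 0.0502), and on the TPM as deposited RPS6KA1 and MARK2 were not called, at 0.37 and 0.09. SIK2, unlike SIK1, which was listed at 0, was present at 84.2 to 105.9 CPM in the controls. CREBBP and EP300, which encode CBP and p300, are named outside the rule for list genes. They ran from 469.2 to 578.2 CPM and from 243.8 to 312.9 CPM in the controls. Under A485 they ran from 600.6 to 755.5 and from 327.2 to 398 CPM, and CREBBP under dCBP from 583.1 to 650.2 CPM. These lay above every control, as was so for 10.8% of genes under A485 and 20.1% under dCBP. EP300 under dCBP and both genes under IHK-44 and JQAD overlapped the controls. Neither gene passed the edgeR test against DMSO over both times for any compound. The regulator calls were lost without the DMSO library of 6 h, which leaves 1 DMSO library. Without the 100 nM dCBP library of 6 h 0 were called lower and 1 higher for dCBP. The shares of all genes called in these fits are not given here.

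Of the genes for cAMP production and protein kinase A, 18 of 21 were tested. Under dCBP 5 fell and 3 rose, under IHK-44 2 fell and 1 rose, and the list medians were -0.18 and -0.16, against 0.05 and 0.04 for all genes. At 6 h 7 were lower and 5 higher under dCBP, 9 and 4 under IHK-44, and 4 and 1 under A485. The adenylyl cyclase ADCY9 fell by 0.70 (SE 0.18) under IHK-44, from 164.9 to 179 CPM in the controls to 92.4 to 139.9 CPM. Under dCBP the kinase inhibitor PKIA fell by 0.66 and the catalytic subunit PRKACB by 0.44. The cyclases ADCY1 and ADCY10 rose under dCBP by 1.42 and 2.97, both from low levels (1.35 to 2.04 CPM and 0.060 to 0.322 CPM in the controls), and the regulatory subunit PRKAR2B rose by 1.06 under IHK-44. With NT as control ADCY10 was 1.46 (edgeR adjusted p 0.114) and PRKAR2B 0.63 (0.181), and on the TPM as deposited ADCY1 was 0.20 (limma adjusted p 0.348). Of 9 phosphodiesterases tested from 16, which degrade cyclic nucleotides, PDE10A fell under dCBP by 0.71 (SE 0.23), and none passed under IHK-44; at 6 h 2 were lower under dCBP, 3 under IHK-44 and 0 under A485. Among 8 partners of the NR4A receptors 2 fell under each compound: RXRG by 1.93 (SE 0.50) and NCOA2 by 0.40 (SE 0.13) under dCBP, and RXRA, the retinoid receptor that pairs with NR4A1 and NR4A2, by 0.74 (SE 0.24) under IHK-44. NCOA2 was not called by limma on CPM (-0.295, adjusted p 0.0945). At 6 h 5 partners were lower and 2 higher under dCBP, 5 and 1 under IHK-44, and 3 and 1 under A485. In these 3 lists too the calls for both compounds were lost without the DMSO library of 6 h. That fit leaves 1 DMSO library, and its share over all genes is not given here. Against DMSO A485 and JQAD gave 0 calls in all 6 lists, where 0.271% and 0 of all genes were called.

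**Figure D4:**
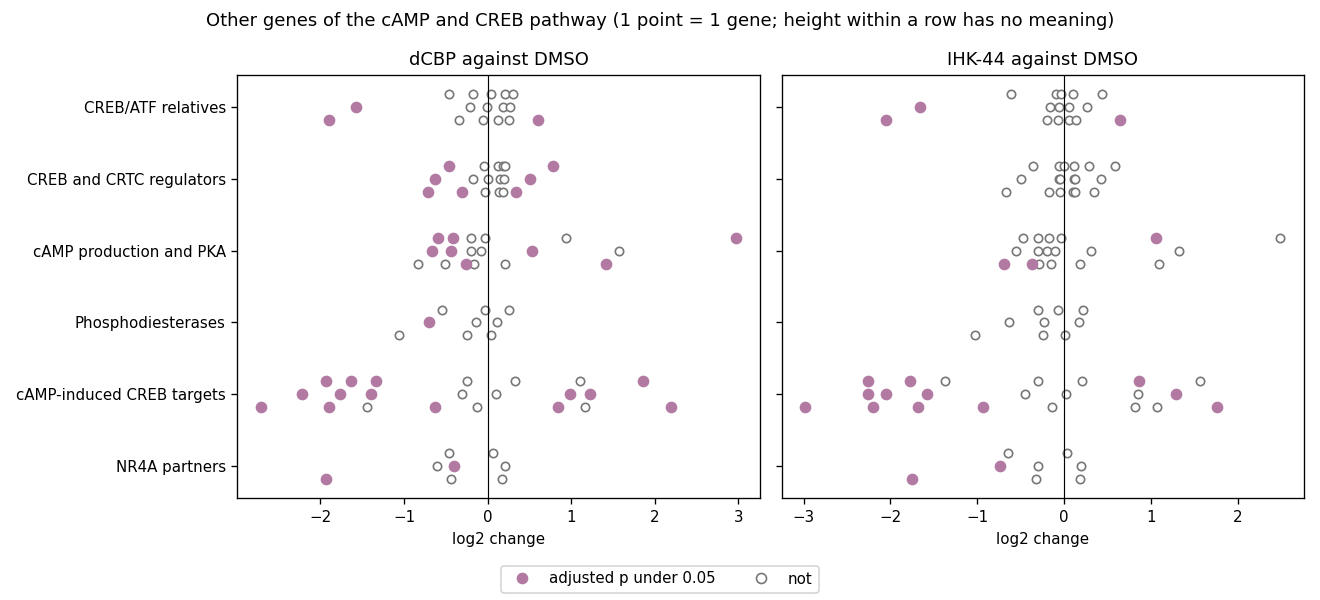
Log2 change against DMSO (horizontal axis) of the tested genes of 6 lists around the 10 genes, for dCBP and IHK-44; 1 point is 1 gene, filled where the edgeR adjusted p is under 0.05. The cAMP-induced CREB targets hold calls on both sides, 9 lower and 5 higher for dCBP and 9 lower and 3 higher for IHK-44.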

How the data were processed

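The 20 RNA-seq libraries are used. The authors deposited expected counts and TPM per gene, and the submitters' processing notes name STAR 2.5.3a and RSEM 1.3.3, and hg38 and mm10 as builds without giving their roles. Of the deposited expected counts 88.2% were whole; they were rounded, and rows outside the 18980 coding genes were left out. CPM was computed here from the deposited expected counts over the coding genes. Fits used edgeR 4.0.16 in R 4.3.3 (quasi-likelihood, TMM, filterByExpr, Benjamini-Hochberg adjustment, threshold 0.05): compounds plus time over 20 libraries (13260 genes; also for pairs), treatment by time with DMSO and NT joined (13260 genes), and dose within compound and time over 16 libraries (13137 genes). The scripts were tested on simulated data. Alternatives were limma 3.58.1 on log2(CPM + 1), DESeq2 1.42.0, RLE scaling, no filter, other controls, leaving out each library, and limma on log2(TPM + 1), chosen after seeing the data. Pooled ratios have exact 95% intervals (scipy 1.17.1). Total depth limits precision for NR4A2 and NR4A3. The members, lists and tests were chosen with earlier results of these data known. All members are named; of each list, at most the 3 called genes with the largest change in each direction; and for each member with a mean of at least 1 CPM its 3 nearest genes. The nearest genes of CREB1 are not reported here.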

Additional observations from a re-analysis of the deposited data

Results flagged for a closer look

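Compounds differed in 8 gene comparisons, each by an edgeR test of the difference between the compounds over both doses and times. NR4A2 was higher under dCBP than under JQAD by 2.32 on the log2 scale, and higher under IHK-44 than under JQAD by 2.40. NR4A1 was higher under dCBP than under JQAD by 0.771. CRTC2 was higher than under JQAD by 0.464 for dCBP and by 0.354 for IHK-44, CRTC3 by 0.213 and 0.245 (both turned in sign on the TPM as deposited), and CRTC1 by 0.418 for dCBP (turned in sign as well). The NR4A2 differences rest on 12 reads in the JQAD libraries.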

How the results depend on the processing

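No paired analysis was possible because the labels carry no replicate numbers and each condition is 1 library. On the TPM as deposited, which moves the median of all genes, these log2 differences turned in sign: against DMSO CRTC3 was -0.0934 for dCBP and -0.0702 for IHK-44, and -0.0299 for dCBP at 6 h; A485 minus IHK-44 was 0.65 for CRTC1 and 0.632 for CRTC3; A485 minus dCBP was 0.595 for CRTC1 and 0.505 for CRTC2; dCBP minus JQAD was -0.0931 for CRTC1 and -0.163 for CRTC3; and IHK-44 minus JQAD was -0.14 for CRTC3. Calls on that scale were, against DMSO, 1 for A485 (CRTC2, higher) and 1 each for dCBP and IHK-44 (CREM, lower, in place of the genes called on counts), 2 at 2 h (CREM, lower) and 21 between compounds (of 48). At 6 h they were 7: CREB1, CRTC1, CRTC2, CRTC3 and NR4A1 higher under A485 and CREM lower under dCBP and IHK-44. NR4A2 was below the filter there. The difference A485 minus dCBP for NR4A1, called on neither scale, was -0.463 on counts and 0.177 there. Against DMSO dCBP had 3 calls, which became 1 with NT as control and 5 with DMSO and NT joined (1 of them CREM, lower). IHK-44 had 1, which became 0 without the filter, 0 on TPM over coding rows, 0 with NT as control, 2 by limma on log2(CPM + 1) and 4 with both controls joined (1 of them CREM, lower). At 6 h the 11 calls became 4 with DMSO alone and 6 with NT alone. Between compounds the 8 calls became 5 with RLE scaling and 5 without the filter. The 1 library and gene at a 2-fold difference from DMSO became 5 with a pseudocount of 0.1, 3 with NT as control and 15 at 1.5-fold. Leaving out each library gave 0 to 3 calls for dCBP, 0 to 2 for IHK-44, 6 to 14 at 6 h, 4 to 11 between compounds and 0 to 2 for the time dependence, and 0 to 0 for A485, JQAD, 2 h, the controls and the dose. Calls over all genes, lower and higher, were for IHK-44 against DMSO 1221 and 1026 by edgeR, 3877 and 53 on the TPM as deposited and 904 and 1872 by limma on CPM; for dCBP the last were 1065 and 2405; for A485 21 and 15 by edgeR, 30 and 398 on the TPM, 155 and 230 by DESeq2 and 20 and 6 with RLE. The cause of these shifts was not tested.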
